A study of Mus musculus with 12 samples.

Results

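The RNA of 9 genes of the transforming growth factor beta (TGF-beta) pathway was followed in natural killer (NK) cells of the mouse bone marrow. The genes are Tgfb1, Tgfbr1, Tgfbr2, Smad2, Smad3, Smad4, Smad7, Ski and Skil, matched by Ensembl gene ID. The list was drawn up from what is known of the pathway, with earlier results of these data known. Its genes are 9 of the 37991 gene IDs in the table. All 9 had an FPKM (fragments per kilobase of gene, scaled to the library's counted reads) of 1 or more in at least 3 libraries and entered the test, as did 12384 genes in all. NK cells were sorted as NK1.1 and CD49b positive from C57Bl/6 mice, and 12 libraries were sequenced, 3 in each of 4 groups. Id2KO mice carried Ncr1Cre and floxed Id2, Tcf1KO mice carried Ncr1Cre and floxed Tcf7, and DKO mice carried Ncr1Cre with both floxed genes. The Ctrl mice had no Cre and were Id2F/F or, by the series text, also Id2F/F Tcf7F/F, and which control library had which genotype is not given in the sources used here. Ncr1Cre is expressed where the Ncr1 gene (NKp46) is active. All 3 targeted groups thus differ from Ctrl by Cre as well as by the deletion it is meant to make. Floxed Id2 itself was shared by Ctrl, Id2KO and DKO, whereas the Tcf1KO labels name only floxed Tcf7. Ages are not in the labels, and neither is the animal behind each library. A p-value here therefore refers to variation among the libraries as given, which may be technical.

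TGF-beta is secreted as a latent complex. Once released it is bound by the type II receptor TGFBR2, which then phosphorylates the type I receptor TGFBR1. TGFBR1 phosphorylates SMAD2 and SMAD3, which join SMAD4 and enter the nucleus to regulate target genes. SMAD7 blocks the receptor, and SKI and SKIL (SnoN) hold SMAD complexes in a repressed state. In NK cells the cytokine is known to restrain maturation and cytotoxicity and to favour features of tissue-resident innate lymphoid cells.

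No TGF-beta gene passed an adjusted p of 0.05 in any of 8 comparisons. These were limma's moderated tests with Benjamini-Hochberg adjustment over all 12384 genes. Tgfbr1, the type I receptor gene, and Smad2, a receptor-activated Smad gene, came nearest. Tgfbr1 had a higher level in every library with Cre than in every Ctrl library. Smad2 had a lower level in every Tcf1KO and DKO library than in every Id2KO and Ctrl library. The other 7 genes overlapped between genotypes in most comparisons. Of 72 pairs of a gene and a comparison, 7 had an unadjusted p under 0.05, all of them Tgfbr1 or Smad2. Over all 12384 genes 4.8% to 10.9% had such a p, depending on the comparison. The 72 pairs reuse the same libraries, so they are not independent, and nothing is read from the count.

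The libraries held between 13977524 and 20209587 reads, computed from the steps between the values. Mitochondrial ribosomal RNA took 23.6% to 32.4% of them. Id2 RNA stood at 17.8, 17.1 and 19.2 FPKM in Id2KO and 48.8, 41.2 and 36.8 FPKM in DKO, against 124, 163 and 170.0 FPKM in Ctrl. Tcf7 RNA stood at 29.6, 37.3 and 38 FPKM in Tcf1KO and 53.9, 60 and 73.3 FPKM in DKO, against 37.7, 38.6 and 46.5 FPKM in Ctrl. The Tcf1KO libraries overlapped Ctrl, and all DKO libraries lay above Ctrl, opposite to what the label alone would give. In Id2KO, however, Tcf7 stood at 81.5, 92.1 and 80.9 FPKM. All DKO libraries thus lay below Id2KO, the group with Cre that differs from DKO by the floxed Tcf7. A total over the whole gene also counts exons outside a floxed segment, so it does not check the Tcf7 labels. Every direction given for the libraries labelled Tcf1KO and DKO, and by Tcf7 status, rests on those labels. All 12 NK marker genes were tested. They summed to 2020 to 2600 FPKM in Id2KO, 2450 to 2710 in Tcf1KO, 2310 to 3270 in DKO and 3110 to 3280 in Ctrl. Single NK markers did not all follow this sum. Ncr1 averaged 124 FPKM in Id2KO, 64.8 in Tcf1KO and 78.1 in DKO, against 192 in Ctrl. Gzma averaged 346 FPKM in Id2KO, 803 in Tcf1KO and 833 in DKO, against 757 in Ctrl. The 3 libraries with the lowest weight in limma's array weights were Id2KO replicate 3, DKO replicate 3 and Ctrl replicate 2. Without these 3 libraries 0 of the 9 genes passed in any comparison.

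Tgfb1 (ENSMUSG00000002603, chromosome 7, 25687002 to 25705077, plus strand, GRCm38) encodes the TGF-beta 1 ligand, the main form made by blood cells. Its level was 15.9, 16.3 and 14.2 FPKM in Id2KO, 20.4, 13.5 and 17.9 in Tcf1KO, 17.5, 19.3 and 19.4 in DKO, and 16.7, 11.7 and 19.4 in Ctrl. Each group overlapped Ctrl. The Ctrl libraries alone spanned most of the range of all 12, from 11.7 to 20.4 FPKM. The DKO libraries lay above the Id2KO libraries without overlap, by 0.26 ± 0.20 (SE) on the log2(FPKM + 1) scale (limma, adjusted p = 0.671).

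Tgfbr1 (ENSMUSG00000007613, chromosome 4, 47353222 to 47414931, plus strand) encodes the type I receptor kinase. Its level was 8.91, 7.08 and 4.78 FPKM in Id2KO, 8.1, 5.12 and 4.48 in Tcf1KO, 6.01, 7.43 and 7.81 in DKO, and 3.62, 3.2 and 3.9 in Ctrl. The highest Ctrl library lay below the lowest library with Cre, and the Id2KO and Tcf1KO libraries were spread far more widely than those of Ctrl. The groups averaged 6.92 ± 2.07 FPKM in Id2KO, 5.9 ± 1.93 in Tcf1KO, 7.08 ± 0.951 in DKO and 3.57 ± 0.352 in Ctrl (SD, n = 3 each). Such a separation of all 9 libraries with Cre from all 3 without it was found in 1.34% of the tested genes, 166 of 12384, and in 1 of the 9 TGF-beta genes.

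The log2 difference of Tgfbr1 was 0.76 ± 0.24 (SE) in Id2KO against Ctrl (limma, adjusted p = 0.306). It was 0.56 ± 0.24 in Tcf1KO against Ctrl (limma, adjusted p = 0.999) and 0.82 ± 0.24 in DKO against Ctrl (limma, adjusted p = 0.294). These 3 differences share the same Ctrl libraries. DKO differed from Id2KO by 0.06 (95% interval -0.47 to 0.58) and from Tcf1KO by 0.26 (95% interval -0.27 to 0.78). The comparison that averages over Tcf7 status, Id2KO and DKO together against Tcf1KO and Ctrl together, gave 0.51 ± 0.17 (limma, adjusted p = 0.294). In that comparison the libraries overlapped, since the Tcf1KO libraries lay within the range of the Id2KO and DKO libraries or just below it.

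The summed level of T cell markers was, like Tgfbr1, higher in every library with Cre than in every Ctrl library. The 10 markers, none of which was at 0 in all libraries, summed to 891 to 1440 FPKM in Id2KO, 1330 to 1820 in Tcf1KO, 1660 to 2010 in DKO and 805 to 886 in Ctrl. Single markers differed from the sum. Against Ctrl 7 of 10 had a fitted difference above 0 in Id2KO, with a median of 0.10 and only Cd3d called, and 10 of 10 did in Tcf1KO and in DKO, with 0 called in both by limma. Within Id2KO the sum was 891, 1090 and 1440 FPKM where Tgfbr1 was 8.91, 7.08 and 4.78 FPKM, so the library with the lowest sum had the highest Tgfbr1 level. The same held in Tcf1KO, but not in DKO or Ctrl. In DKO sums of 1660, 1740 and 2010 FPKM went with Tgfbr1 levels of 6.01, 7.43 and 7.81 FPKM. In Ctrl sums of 805, 860 and 886 FPKM went with Tgfbr1 levels of 3.62, 3.2 and 3.9 FPKM. The part of T cell RNA in the Tgfbr1 levels was not tested. In whole sorted populations, fewer cells of a type and less RNA per cell cannot be told apart. Neutrophil and myeloid markers, 12 of 12 tested, summed to 60.2 to 1040 FPKM in Id2KO, 1200 to 4280 in Tcf1KO, 324 to 790 in DKO and 902 to 3630 in Ctrl. With a score of neutrophil, erythroid and basophil markers as a term in the fit, Tgfbr1 differed by 0.60 in Id2KO, 0.58 in Tcf1KO and 0.74 in DKO against Ctrl (limma, adjusted p = 0.657, 0.893 and 0.437).

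Tgfbr2 (ENSMUSG00000032440, chromosome 9, 116084293 to 116175360, minus strand) encodes the type II receptor, which binds the ligand. Its level was 10.6, 9.91 and 8.31 FPKM in Id2KO, 11.2, 10.7 and 8.19 in Tcf1KO, 10.8, 12.8 and 12.6 in DKO, and 9.43, 9.37 and 9.32 in Ctrl. All 3 DKO libraries lay above all Id2KO and all Ctrl libraries and overlapped those of Tcf1KO. The difference was 0.33 ± 0.15 (SE) against Ctrl (limma, adjusted p = 0.540) and 0.31 ± 0.15 against Id2KO (limma, adjusted p = 0.501). Id2KO and Tcf1KO differed from Ctrl by 0.02 and 0.08, with 95% intervals of -0.32 to 0.36 and -0.26 to 0.42. Over the 12 libraries Tgfbr1 and Tgfbr2 had a Pearson r of 0.691, the highest among the 36 pairs of the 9 genes. These points share library size and cell make-up.

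The promoters of the receptor pair are shown because these genes had the most similar pattern of the 9. Both run from 250 bases before to 50 bases after the annotated start, 5′ to 3′ on the gene's strand, and come from RefSeq on GRCm38.p6. They are chr4:47352972-47353271 (plus strand) and chr9:116175314-116175613 (minus strand). Capitals mark matches, on either strand, to the E box motifs CAGCTG and CAGGTG of E proteins, the TCF motif CTTTGA and the Smad motif CAGAC.
Tgfbr1: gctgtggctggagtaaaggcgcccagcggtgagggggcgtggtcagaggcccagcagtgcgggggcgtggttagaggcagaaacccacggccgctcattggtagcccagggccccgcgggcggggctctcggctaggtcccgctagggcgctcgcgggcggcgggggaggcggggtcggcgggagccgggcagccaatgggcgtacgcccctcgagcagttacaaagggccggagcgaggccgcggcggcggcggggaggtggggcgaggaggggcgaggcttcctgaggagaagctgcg
Tgfbr2: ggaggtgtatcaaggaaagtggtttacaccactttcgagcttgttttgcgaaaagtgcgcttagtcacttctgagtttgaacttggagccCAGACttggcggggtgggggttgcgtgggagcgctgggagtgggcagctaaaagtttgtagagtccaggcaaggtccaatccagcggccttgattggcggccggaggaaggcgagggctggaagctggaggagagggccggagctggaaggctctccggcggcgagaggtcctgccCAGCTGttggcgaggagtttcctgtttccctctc
This Tgfbr1 window, the one at the GENCODE start, held none of the 4 motifs. The table lists another Tgfbr1 promoter, chr4:47385966-47386265 (plus strand), which is not printed and held 1 match to CAGAC and none to the other 3. The Tgfbr2 window held 1 match to CAGCTG and 1 to CAGAC, which do not overlap each other. Of all 32851 promoters in the table, 16.3% held CAGCTG, 20.2% CAGGTG, 16% CTTTGA and 49.6% CAGAC on either strand. The promoters of Tgfb1, Smad3 and Ski held none of the 4.

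**Figure D1:**
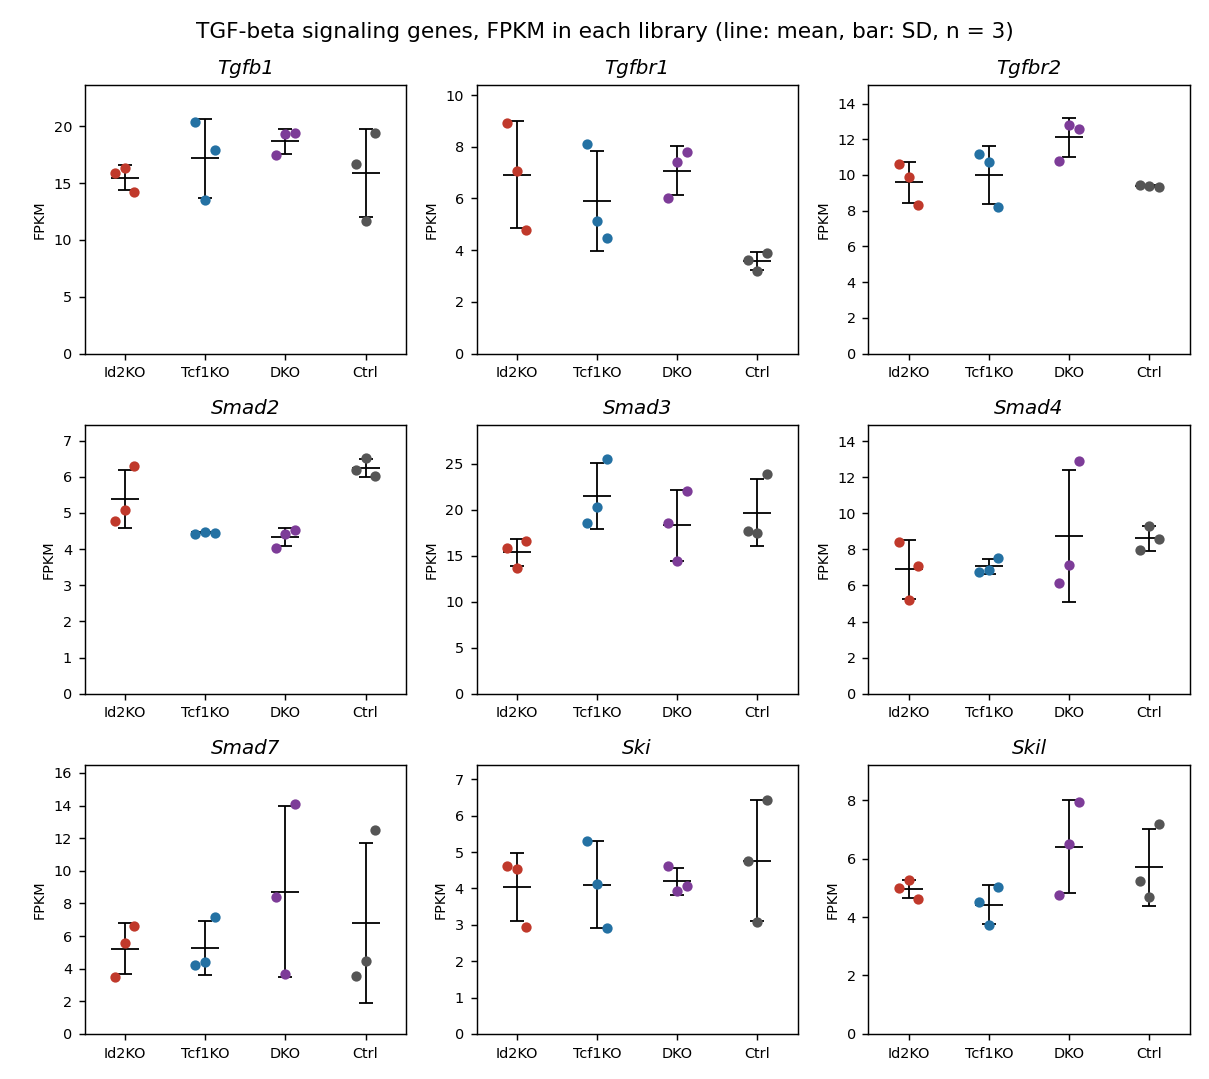
FPKM of the 9 TGF-beta genes in each library (points), with the group mean (line) and SD (bar) over 3 libraries in Id2KO, Tcf1KO, DKO and Ctrl. Every Tgfbr1 point with Cre lies above the Ctrl points, which reach 3.9 FPKM, and the Smad7 points of DKO and Ctrl are spread from 3.57 to 14.1 FPKM.

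Smad2 (ENSMUSG00000024563, chromosome 18, 76241580 to 76310963, plus strand) encodes a Smad that TGFBR1 phosphorylates. Its level was 4.77, 5.09 and 6.29 FPKM in Id2KO, 4.43, 4.48 and 4.45 in Tcf1KO, 4.03, 4.42 and 4.52 in DKO, and 6.19, 6.51 and 6.03 in Ctrl. The 6 libraries with targeted Tcf7 reached 4.52 FPKM at most, below the 4.77 FPKM of the lowest other library. Id2KO replicates 1 and 2 lay between the groups and replicate 3 lay among the Ctrl values. The difference between Tcf1KO and DKO together and Id2KO and Ctrl together was -0.33 ± 0.10 (SE; limma, adjusted p = 0.264). A separation of these 6 libraries from the other 6 occurred in 0.88% of tested genes and in 1 of the 9 TGF-beta genes.

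Against Ctrl the Smad2 difference was -0.41 ± 0.14 in Tcf1KO (limma, adjusted p = 0.830) and -0.44 ± 0.14 in DKO (limma, adjusted p = 0.340). In Id2KO it was -0.19 ± 0.14 (95% interval -0.50 to 0.12). Smad2 and Tgfbr1 had the lowest Pearson r of the 36 pairs, -0.699 over the 12 libraries. With the marker score as a term the Smad2 difference between Tcf7-targeted and Tcf7-intact libraries was -0.36 (limma, adjusted p = 0.258).

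Smad3 (ENSMUSG00000032402, chromosome 9, 63646767 to 63757994, minus strand) encodes the other Smad that TGFBR1 phosphorylates. Its level was 15.9, 13.7 and 16.6 FPKM in Id2KO, 18.6, 20.3 and 25.5 in Tcf1KO, 18.6, 14.4 and 22 in DKO, and 17.7, 17.5 and 23.9 in Ctrl. The Id2KO libraries lay below all Ctrl and all Tcf1KO libraries, and DKO overlapped all other groups. The difference of Id2KO from Ctrl was -0.33 ± 0.19 (SE; limma, adjusted p = 0.647). Averaged over Tcf7 status, Id2-targeted libraries differed from Id2-intact ones by -0.28 (95% interval -0.58 to 0.03).

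Smad4 (ENSMUSG00000024515, chromosome 18, 73639009 to 73703780, minus strand) encodes the common partner of the receptor-activated Smads. Its level was 8.4, 5.17 and 7.1 FPKM in Id2KO, 6.76, 6.87 and 7.53 in Tcf1KO, 6.11, 7.16 and 12.9 in DKO, and 7.95, 9.32 and 8.56 in Ctrl. Tcf1KO lay below Ctrl without overlap (-0.25 ± 0.24, SE; limma, adjusted p = 0.999). DKO replicate 3 had the highest level of all 12 libraries, while its group mates had 6.11 and 7.16 FPKM.

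Smad7 (ENSMUSG00000025880, chromosome 18, 75367529 to 75395935, plus strand) encodes the inhibitory Smad and is itself induced by TGF-beta. Its level was 3.51, 5.58 and 6.59 FPKM in Id2KO, 4.2, 4.42 and 7.18 in Tcf1KO, 8.42, 3.65 and 14.1 in DKO, and 3.57, 4.44 and 12.5 in Ctrl. Libraries of 1 group differed more than groups did, and all groups overlapped. The highest library had 4.02 times the level of the lowest, the widest range among the 9 genes. The 95% intervals were accordingly wide, from -0.72 to 1.37 for DKO against Ctrl and from -1.23 to 0.85 for Id2KO against Ctrl.

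Ski (ENSMUSG00000029050, chromosome 4, 155154075 to 155222592, minus strand) and Skil (ENSMUSG00000027660, chromosome 3, 31095058 to 31122577, plus strand) encode co-repressors of Smad complexes. Ski stood at 4.63, 4.53 and 2.95 FPKM in Id2KO, 5.3, 4.11 and 2.9 in Tcf1KO, 4.62, 3.92 and 4.07 in DKO, and 4.76, 3.09 and 6.42 in Ctrl. All Ski groups lay within the range of Ctrl, but for the replicates 3 of Id2KO and Tcf1KO, which were just below it. Skil stood at 4.99, 5.26 and 4.62 FPKM in Id2KO, 4.51, 3.74 and 5.04 in Tcf1KO, 4.77, 6.51 and 7.94 in DKO, and 5.24, 4.68 and 7.2 in Ctrl. The Skil groups overlapped as well. DKO differed from Tcf1KO by 0.43 (95% interval -0.02 to 0.88) for Skil and by 0.05 (95% interval -0.51 to 0.62) for Ski.

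**Figure D2:**
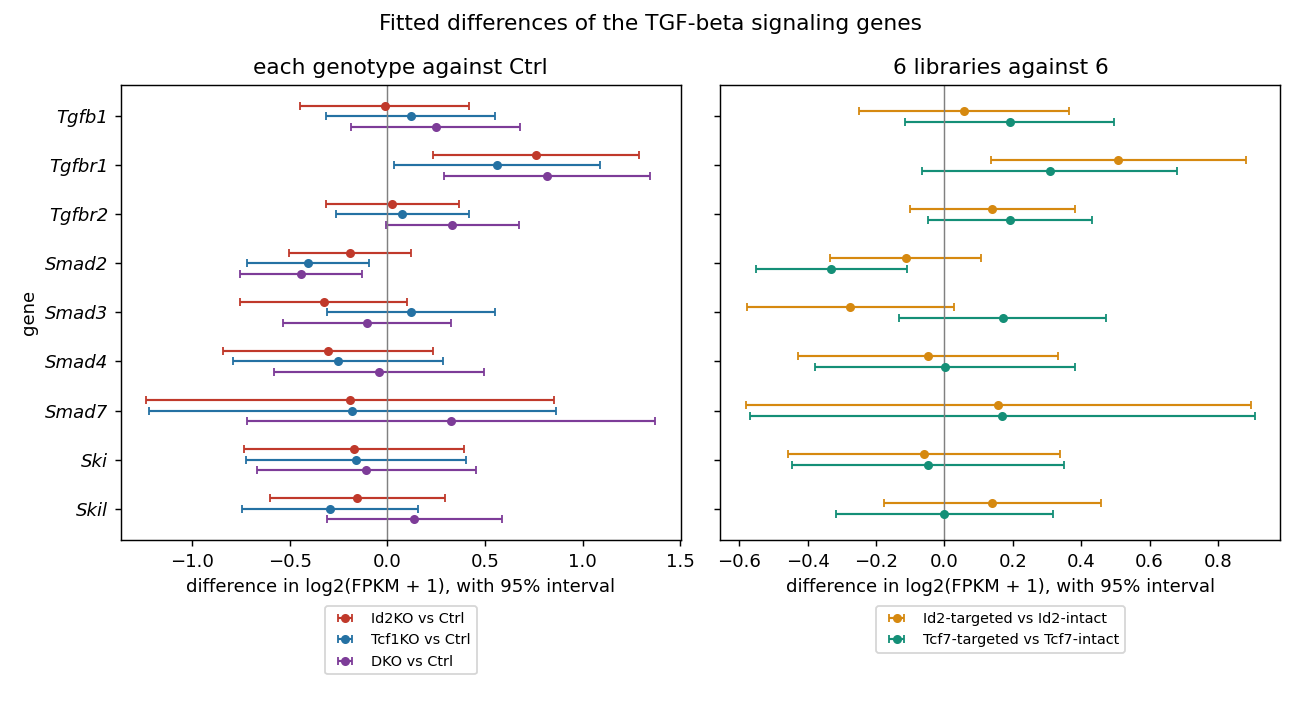
Fitted differences in log2(FPKM + 1) with 95% intervals (bars) for the 9 TGF-beta genes, for each targeted genotype against Ctrl (left) and for 6 libraries against 6 by Id2 or Tcf7 status (right). The Tgfbr1 intervals lie above 0 in all 3 genotypes, at 0.76, 0.56 and 0.82, and none of the differences passed after adjustment over all genes.

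Counted by comparison, 0 of the 9 genes were called in Id2KO against Ctrl, where 0.178% of the 12384 genes tested were called. At an unadjusted p under 0.05 it was 1 of 9, beside 9.71% of all genes, and 2 of 9 did not overlap, beside 13.9%. In Tcf1KO against Ctrl 0 were called, as were 0% of all genes, 2 had an unadjusted p under 0.05 (4.8% of all genes) and 3 did not overlap (10.7%). In DKO against Ctrl 0 were called (0.145% of all genes), 2 had an unadjusted p under 0.05 (9.44%) and 3 did not overlap (13.5%). Against Ctrl the 9 genes had a median difference of -0.17 for Id2KO, -0.16 for Tcf1KO and 0.14 for DKO, beside -0.00788, -0.00162 and -0.00897 over all genes.

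Between the targeted genotypes 0 of 9 were called in DKO against Id2KO (0.121% of all genes), with 0 at an unadjusted p under 0.05 (10.9%) and 3 that did not overlap (14.7%), namely Tgfb1, Tgfbr2 and Smad2. In DKO against Tcf1KO 0 were called (0.0565%), 0 had an unadjusted p under 0.05 (6.73%) and 0 were without overlap (12.6%). By Id2 status 0 were called (0.299%), 1 had an unadjusted p under 0.05 (10.9%) and 0 were without overlap (0.896%). By Tcf7 status 0 were called (0.371%), 1 had an unadjusted p under 0.05 (9.74%) and 1 was without overlap (0.88%). The interaction of both deletions called 0 of 9 (0% of all genes), and 0 of 9 had an unadjusted p under 0.05 (5.94%). The largest interaction values were 0.70 (95% interval -0.78 to 2.17) for Smad7 and 0.59 (95% interval -0.05 to 1.22) for Skil. voom with limma on reads recovered from the FPKM also called 0 of 9 in each of the 8 comparisons.

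The spread between libraries was set against counting error. The 9 genes had between 405 and 3676 reads in a library, and counting alone gives a coefficient of variation of 1.85% to 3.89%. The spread over the 3 libraries of a group was larger in 34 of 36 cases. It reached 71.8% for Smad7 in Ctrl and 60.0% for Smad7 in DKO, and 42.0% for Smad4 in DKO. The tightest values were 0.583% for Smad2 in Tcf1KO and 0.592% for Tgfbr2 in Ctrl, below the counting error of 3.49% and 2.07%.

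**Figure D3:**
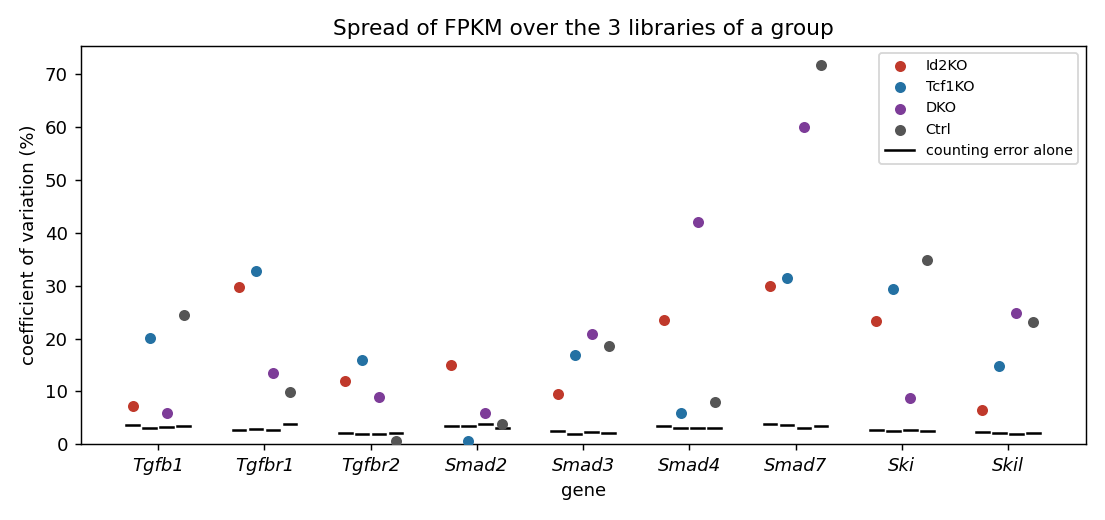
Coefficient of variation of FPKM over the 3 libraries of each group (points, percent) for the 9 TGF-beta genes, beside the value that counting reads alone would give (black lines, 1.85% to 3.89%). Smad7 is the most variable gene, with 71.8% in Ctrl and 60.0% in DKO.

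By mean FPKM over the 12 libraries the order was Smad3 (18.7), Tgfb1 (16.8), Tgfbr2 (10.3), Smad4 (7.82), Smad7 (6.51), Tgfbr1 (5.87), Skil (5.38), Smad2 (5.1) and Ski (4.28). Ski and Skil overlapped Smad2 and Tgfbr1 in range, so the lower end of this order is not resolved. The order also depends on gene length. The steps in the values give the lengths the authors divided by, which were 21431 bases for Ski and 26761 for Skil, whereas the exons of GENCODE M21 cover 5562 and 9694 bases. Per exon length of GENCODE M21, Ski had 16.5 and Skil 14.8 FPKM, Smad3 24.1, Tgfbr2 20.2, Smad4 16.9, Smad7 11.7, Tgfbr1 11.3, Tgfb1 11.2 and Smad2 6.06. Tgfb1 was thus 2nd of 9 with the authors' length of 3370 bases and 8th of 9 with the 5042 bases of GENCODE. Which libraries of 1 gene lie higher does not depend on its length. The fitted differences depend on it in part, since 1 is added to the FPKM before the log. The filter and the mean-dependent prior also use the FPKM.

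Close partners of each gene were sought among the tested genes by Pearson r of log2(FPKM + 1) over the 12 libraries. Genes with Gm or Rik names, and IDs without a name or with a shared one, were passed over. They were Rpe (0.931) and Togaram1 (0.879) for Tgfb1, Itm2a (0.883) for Tgfbr1, and Mms19 (0.887) beside the T cell receptor segment Traj2 (0.927) for Tgfbr2. For the Smads they were Plscr4 (0.92) and Kat2a (0.878) for Smad2, Zfp703 (0.894) and Foxj1 (0.867) for Smad3, Rngtt (0.918) and Smim6 (0.885) for Smad4, and Zbtb10 (0.937) and Rgcc (0.931) for Smad7. For the co-repressors they were Nhlrc2 (0.888) and Msl3 (0.881) for Ski, and H2-Q4 (0.907) and Kif21b (0.89) for Skil. None of these partners was one of the 9 genes, and the likeness is a description over 12 libraries that share depth and cell make-up.

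The other genes of the pathway were taken from 9 lists by role, 103 genes beside the 9, of which 72 were tested. Among these 72, 3 rose and 1 fell by Tcf7 status, 2 fell by Id2 status (Id2 itself, the targeted gene, and S1pr5), and the same 2 fell in each of Id2KO and DKO against Ctrl. In DKO against Id2KO Itga1 and Id2 rose, in DKO against Tcf1KO Id2 fell, and in Tcf1KO against Ctrl and in the interaction 0 were called. At an unadjusted p under 0.05 there were 13 of the 72 in Id2KO (18.1%, beside 9.71% of all genes), 9 in Tcf1KO (12.5%, beside 4.8%) and 12 in DKO (16.7%, beside 9.44%), each against Ctrl. There were 19 in DKO against Id2KO (26.4%, beside 10.9%), 5 in DKO against Tcf1KO (6.94%, beside 6.73%), 10 by Id2 status (13.9%, beside 10.9%), 15 by Tcf7 status (20.8%, beside 9.74%) and 10 in the interaction (13.9%, beside 5.94%). The shares called over all genes were those given above, 0% to 0.371%, and the lists were chosen with earlier results known, so nothing is read from the difference. All of these calls lay in the list of genes that TGF-beta is known to regulate in lymphocytes. The lists of ligands, latency and activation genes, receptors, Smads, co-repressors, co-activators and anchors, ubiquitin and phosphatase regulators, and the non-Smad branch had 0 called in every comparison.

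In the list of regulated genes, 25 of 30 were tested. Itga1, the CD49a integrin chain of tissue-resident lymphocytes, stood at 6.67, 5.3 and 6.88 FPKM in Tcf1KO and 7.3, 5.41 and 8.65 in DKO, against 1.04, 0.983 and 1.02 in Id2KO and 2.77, 2.67 and 1.48 in Ctrl. All libraries with targeted Tcf7 were above all others, and a separation by Tcf7 status was found in 0.88% of all tested genes. Itga1 rose by Tcf7 status by 1.57 ± 0.15 (SE; limma, adjusted p = 0.00452) and kept its call when any 1 library was left out (adjusted p up to 0.0218 over all settings). It also rose in DKO against Id2KO by 1.99 ± 0.21 (limma, adjusted p = 0.0069), a call lost without Id2KO replicate 2, in a fit of these groups alone, and without the 3 libraries of lowest weight (adjusted p up to 0.233).

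Ikzf2, the transcription factor Helios, stood at 25.7, 35.5 and 28.7 FPKM in Tcf1KO and 23.4, 29.8 and 35.1 in DKO, against 10.9, 9.8 and 18.8 in Id2KO and 12.4, 12.6 and 12.2 in Ctrl. Tnfsf10, the gene of the death ligand TRAIL, stood at 14.9, 23.8 and 22.8 FPKM in Tcf1KO and 15.7, 19.3 and 26.1 in DKO, against 6.79, 7.99 and 11.6 in Id2KO and 8.81, 10.2 and 10.2 in Ctrl. Eomes, a T-box factor of NK cells that TGF-beta is known to lower, stood at 28.5, 25.1 and 26.4 FPKM in Tcf1KO and 24.3, 25.6 and 27.1 in DKO, against 46.6, 43 and 29.9 in Id2KO and 45.4, 42.2 and 54.4 in Ctrl. In each of the 3 genes the 6 Tcf7-targeted libraries did not overlap the other 6, as in 0.88% of all tested genes. The 3 genes are named because they were called in this same comparison, so the separation is no further evidence. By Tcf7 status Ikzf2 rose by 1.16 ± 0.17, Tnfsf10 rose by 1.05 ± 0.17 and Eomes fell by 0.69 ± 0.12 on the log2 scale (SE; limma, adjusted p = 0.0208, 0.037 and 0.0454).

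These 3 calls are close to the threshold. Ikzf2 kept its call in 3 of the 12 fits that leave out 1 library, without Id2KO replicate 3, Tcf1KO replicate 1 or DKO replicate 1. Tnfsf10 kept it in 2, without Id2KO replicate 3 or Tcf1KO replicate 1, and Eomes in 1, without Id2KO replicate 3. Over all settings the adjusted p reached 0.0684 for Ikzf2, 0.124 for Tnfsf10 and 0.143 for Eomes. T cells express Ikzf2 and Tnfsf10 too. By Tcf7 status 2 of the 10 T cell markers rose, Cd3e and Trac (limma, adjusted p = 0.0162 and 0.0255), and all 10 had a fitted difference above 0, from 0.18 for Thy1 to 1.70 for Cd8a, with a median of 0.68. Not every marker followed Tcf7 status, since Cd3d averaged 63.5 FPKM in Tcf1KO and 54.4 in DKO, against 77.4 in Id2KO and 28.1 in Ctrl. Cd3e stood at 320, 386 and 419 FPKM in Tcf1KO and 351, 414 and 416 in DKO, against 85.8, 111 and 218 in Id2KO and 147, 139 and 111 in Ctrl. The part of T cell RNA in the levels of these 3 genes, and in those of Itga1, was not tested.

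S1pr5, the receptor by which NK cells leave the marrow, stood at 1.41, 0.395 and 0.322 FPKM in Id2KO and 1.95, 3.55 and 1.43 in DKO, against 7.4, 8.2 and 12 in Tcf1KO and 9.5, 23.4 and 15 in Ctrl. It fell by Id2 status by 2.47 ± 0.25 (SE; limma, adjusted p = 0.00222), and adjusted p = 0.051 without the 3 libraries of lowest weight. Against Ctrl it fell by 3.28 ± 0.36 in Id2KO (limma, adjusted p = 0.00298) and by 2.33 ± 0.36 in DKO (limma, adjusted p = 0.0424). The Id2KO call was lost in a fit of the compared groups alone and without the 3 libraries of lowest weight (limma, adjusted p up to 0.0876). The DKO call was kept in 2 of the 12 fits that leave out 1 library, with adjusted p up to 0.292 over all settings. Itgae, the CD103 integrin chain and often used as a marker of TGF-beta exposure did not reach the filter, with a maximum of 1.3 FPKM.

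**Figure D4:**
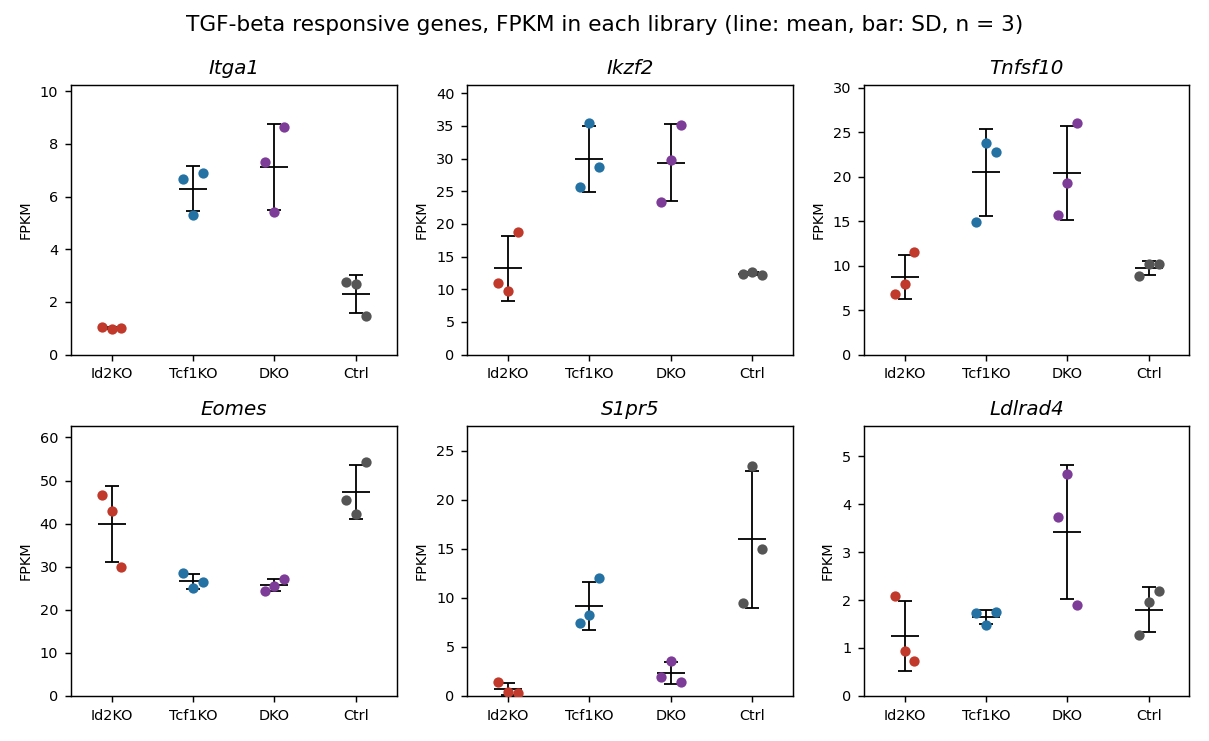
FPKM of 6 genes known to respond to TGF-beta in each library (points), with the group mean (line) and SD (bar) over 3 libraries in Id2KO, Tcf1KO, DKO and Ctrl. Itga1, Ikzf2 and Tnfsf10, higher, and Eomes, lower, are separated in all 6 Tcf1KO and DKO libraries from the other 6. Such a separation was found in 0.88% of all tested genes, and these genes are shown because they were called by Tcf7 status. S1pr5 is lowest in Id2KO, and the groups of Ldlrad4 overlap except Tcf1KO and DKO.

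Among the ligands, Tgfb3 stood at 7.56, 4.35 and 5.08 FPKM in Id2KO, 0.231, 0.779 and 0.146 in Tcf1KO, 0.632, 0.112 and 1.26 in DKO, and 1.37, 0.19 and 4.24 in Ctrl. All Id2KO libraries were above all others. Its difference by Tcf7 status was -1.44 ± 0.34 (SE; limma, adjusted p = 0.148). Gdf11, which signals through activin receptors, stood at 6.06, 10.8 and 7.7 FPKM in Tcf1KO and 7.33, 7.39 and 10.7 in DKO, against 6.06, 5.74 and 5.29 in Id2KO and 4.04, 4.17 and 3.44 in Ctrl. It differed by 0.68 ± 0.15 by Tcf7 status (limma, adjusted p = 0.116). Bmp7 was the other tested ligand, and Tgfb2 did not exceed 0.0493 FPKM.

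Among activation genes, Itgb3, the beta 3 integrin chain, stood at 1.68, 1.5 and 0.987 FPKM in DKO against 6.42, 6.85 and 5.89 in Id2KO (-1.64 ± 0.33, SE; limma, adjusted p = 0.111). Tcf1KO (3.75, 4 and 1.21 FPKM) and Ctrl (3.04, 3.02 and 1.19 FPKM) overlapped DKO and lay below Id2KO. Itgav, the alpha V chain of integrins that activate latent TGF-beta, differed by 0.41 ± 0.16 by Tcf7 status (limma, adjusted p = 0.426). Itgb6 and Itgb8, beta chains in the same list, did not reach the filter, with maxima of 0.00405 and 0.0298 FPKM. Among the other receptors, Acvr1b, a type I activin receptor, stood at 5.54, 4.48 and 7.55 FPKM in DKO against 1.35, 1.7 and 2.51 in Id2KO (1.26 ± 0.27; limma, adjusted p = 0.132). Tcf1KO (4.21, 4.55 and 3.64 FPKM) and Ctrl (3.63, 8.21 and 4.92 FPKM) overlapped DKO and lay above Id2KO. The co-receptor Tgfbr3 did not reach the filter, with a maximum of 1.01 FPKM. Of the other Smads, Smad1 and Smad5, which act in the bone morphogenetic protein branch, had adjusted p of 0.453 and 0.546 at their lowest unadjusted p (limma).

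The remaining roles held no call either. Ldlrad4, a membrane inhibitor of TGF-beta signaling that the cytokine induces, stood at 3.74, 4.63 and 1.9 FPKM in DKO against 2.09, 0.927 and 0.725 in Id2KO (0.97 ± 0.29, SE; limma, adjusted p = 0.246). Its Ctrl libraries (1.27, 1.96 and 2.18 FPKM) overlapped both. Those of Tcf1KO (1.72, 1.47 and 1.74 FPKM) overlapped Id2KO and lay below DKO. Mapk14, the p38 kinase of the non-Smad branch, stood at 8.68, 7.23 and 9.26 FPKM in DKO against 4.46, 3.54 and 5.84 in Id2KO (0.76 ± 0.21; limma, adjusted p = 0.211). Its Ctrl libraries (6.09, 8.51 and 7.1 FPKM) overlapped DKO and lay above Id2KO. Those of Tcf1KO (6.52, 6.87 and 4.55 FPKM) overlapped Id2KO and lay below DKO. Runx1, a transcription factor that works with Smads, differed by -0.51 ± 0.17 by Id2 status (limma, adjusted p = 0.286). The co-repressors Tgif1, Ncor1 and Sin3a had adjusted p of 0.589, 0.798 and 0.825 at their lowest unadjusted p (limma).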

How the data were processed

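FPKM values of 37991 gene IDs in 12 libraries were deposited by the authors in 1 table. RNA was prepared with a Nugen Ovation Ultralow kit and read on a NextSeq500, per the labels' protocols. Tools listed in the submitters' processing notes, in no stated order, are HTSeq 0.6.1, TopHat2 2.1.0, edgeR and Trimmomatic 0.33, with the mm10 build. Names came from GENCODE M21 (32938 IDs matched). The steps between values gave whole reads for all 23707 genes above 0 (tolerance 0.001 reads, with 2 mitochondrial ribosomal RNA genes by length at 0.05).

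Genes with 1 FPKM or more in at least 3 libraries (12384) were fitted as log2(FPKM + 1) with limma 3.58.1 in R 4.3.3 over 4 groups, with a mean-dependent prior and Benjamini-Hochberg adjustment within each of 8 contrasts. Fold changes on this scale understate the change of low genes. Both deletions were compared by genotype, 6 libraries against 6, and as an interaction. An exact permutation test of 3 against 3 libraries cannot go below 0.1 and was not used.

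Members, role lists and marker lists were chosen with earlier results of these data known. Members are named with all values, with tests where an unadjusted p was under 0.05. Other pathway genes are named where called, or as up to 3 per list by smallest p. Tests of Tgfb1, Tgfbr2, Smad3, Smad4 and Skil outside that rule, and the T cell markers, were added after their values were seen. Alternatives changed the pseudocount, filter, scale of the test (voom on recovered reads), samples and covariates. Reruns used Python 3.11.15 with pandas 2.3.3. The code was tested on simulated data. A gene with a pattern like that of Tgfbr1 is not reported here.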

Additional observations from a re-analysis of the deposited data

How the results depend on the processing

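Of the 9 TGF-beta genes 0 were called in any alternative setting run, voom on recovered reads included: 22 settings for the 5 comparisons of 2 genotypes, and 21 for those by Id2 or Tcf7 status and the interaction, where a fit of only the compared groups was not run. The lowest adjusted p of any was 0.166 (limma), for Tgfbr1 by Id2 status without Id2KO replicate 3. Tgfbr1 ranged over the settings from 0.58 to 0.97 in Id2KO, 0.34 to 0.71 in Tcf1KO and 0.69 to 0.98 in DKO against Ctrl, and Smad2 by Tcf7 status from -0.40 to -0.28. Leaving out 1 library at a time, the number of all genes called ranged from 13 to 27 in Id2KO, 0 to 3 in Tcf1KO and 1 to 27 in DKO against Ctrl, 2 to 31 in DKO against Id2KO and 0 to 7 in DKO against Tcf1KO. By Id2 status it ranged from 13 to 79, by Tcf7 status from 5 to 69, and for the interaction from 0 to 1. The labels do not say what a replicate number marks. Deviations of same-numbered libraries had correlations of -0.14 to 0.272 (median 0.0302), and those of other pairs -0.227 to 0.174 (median -0.00563). Of 12 libraries, 8 correlated best with their own number. These outcomes reuse the same pairs of libraries, and whether the numbers mark pairs was not tested. With the replicate number as a block 0 of the 9 genes were called, and the count over all genes was 15 in DKO against Tcf1KO and 28 by Tcf7 status, beside 7 and 46 without it. Leaving out the 3 libraries of lowest weight and the library size without mitochondrial ribosomal RNA were chosen after seeing the data.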

Other observations

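After the values were seen, the libraries of the same replicate number were compared. Replicate 3 was the highest library in all 4 groups for Smad3 and Smad7, 2 of the 9 genes, and for 230 of the 12384 tested genes (1.86%). Replicate 1 was so for 219 genes (1.77%) and replicate 2 for 257 (2.08%), with 0 of the 9 genes in either. Among the 25 tested genes regulated by TGF-beta in lymphocytes, replicate 3 was highest for Smad7, Rgs16, Cd69 and Junb. Junb, an immediate early transcription factor, stood at 80.6, 88.5 and 152 FPKM in Id2KO, 68.1, 54 and 114 in Tcf1KO, 150.0, 44.1 and 172 in DKO, and 54.4, 50.8 and 230.0 in Ctrl. Cd69, an early activation and retention receptor, stood at 59.3, 64.6 and 111 FPKM in Id2KO, 54.1, 41.1 and 91.6 in Tcf1KO, 143, 43.1 and 177 in DKO, and 61.4, 24.8 and 77.7 in Ctrl.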
